A study of Mus musculus with 10 samples.

Results

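The galectin genes Lgals1, Lgals3, Lgals8 and Lgals9, with Lgals3bp, which encodes a glycoprotein bound by galectin-3, were followed in microglia isolated by flow cytometry from mice. The 5 genes are called galectin genes below for short, although Lgals3bp is not itself a galectin. They were chosen by name, and each was read from the brightest probe annotated to that gene alone. All 5 were on the array, with 1 such probe each, and all 5 were among the 10792 genes tested of 19749 genes with a usable probe. Male mice aged 8-12 weeks either lacked Trem2 (Trem2-/-) or were wild type (WT, C57BL/6). Cuprizone chelates copper and kills oligodendrocytes, so that axons lose their myelin. Each genotype gave 1 library from control mice, 1 after 4 weeks and 1 after 12 weeks on a diet with 0.2% cuprizone, and 1 from each feeding time after a further 2 weeks on normal food, here called recovery. Cuprizone and recovery groups therefore had 2 libraries each, of different feeding times, and control groups had 1. The labels say no more of the deletion than Trem2-/-. No replicate animals or pools are named in the labels, so p-values measure only the spread between these samples, which may be technical. In comparisons of group means, that spread comes only from pairs of libraries with different feeding times, because single controls add none.

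Galectins are lectins that bind beta-galactoside sugars on glycoproteins and glycolipids. They are made in the cytosol without a signal peptide, leave the cell by an unconventional route and then crosslink glycans on cell surfaces. Inside the cell they bind glycans that become exposed when a lysosome or phagosome is damaged. Galectin-3 is the chimeric family member, with one sugar-binding domain and a tail through which molecules join. Galectin-1 is a dimer of single domains, and galectins 8 and 9 carry a pair of different domains in tandem. In brain, galectin-3 is known as a product of activated microglia that have taken up myelin, and it has been described as a ligand of TREM2, the lipid-sensing receptor missing in the mutant mice.

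The level of Trem2 matched the labelled genotypes throughout. It was, as log2 intensity, 7.26 to 7.85 in the 5 Trem2-/- libraries and 10.66 to 10.81 in the 5 WT libraries. Array medians lay between 37.6 and 39.3 as linear intensity, so brightness was alike. The table's median, 5.27 on the log2 scale, stands here for the dim end of the array, and every galectin gene was above it on all 10 arrays. Microglia markers were bright in each library, with list medians of 10.78 to 11.55. The submitters' sample numbers fall into 2 runs. The first holds 6 arrays, the controls and everything titled 4 weeks. The second holds the 4 arrays titled 12 weeks. The same age range is given for all mice, so any difference in age at collection cannot be told apart from feeding time. Feeding time and run cannot be told apart either. Neutrophil markers differed between these runs, with medians of 4.31 to 4.91 in the second run and 7.63 to 9.84 in the first. Monocyte markers did so as well, at 3.91 to 4.34 in the second run and 5.40 to 6.14 in the first. The Trem2-/- library titled 12 weeks on cuprizone has a time label of 4 weeks, and it was used as titled. Because these are bulk samples, fewer cells of a type and less RNA per cell cannot be told apart.

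The promoters of the 3 genes that passed a test with all libraries and no added block are shown, Lgals3 for genotype and diet, and Lgals3bp and Lgals9 for feeding time. They are the 250 bases before the RefSeq start on GRCm38.p6, written 5′ to 3′ on the gene's strand. Lgals3 lies at chr14:47373610-47373859 (plus strand), Lgals3bp at chr11:118401960-118402209 (minus strand) and Lgals9 at chr11:78984925-78985174 (minus strand). Of the 5 genes, 4 had an entry in the promoter table. Capitals mark a match to a motif.
Lgals3: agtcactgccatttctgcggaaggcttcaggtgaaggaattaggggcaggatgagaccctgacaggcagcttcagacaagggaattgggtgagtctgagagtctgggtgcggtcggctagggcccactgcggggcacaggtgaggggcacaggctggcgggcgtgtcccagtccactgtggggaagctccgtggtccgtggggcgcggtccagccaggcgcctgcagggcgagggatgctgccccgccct
Lgals3bp: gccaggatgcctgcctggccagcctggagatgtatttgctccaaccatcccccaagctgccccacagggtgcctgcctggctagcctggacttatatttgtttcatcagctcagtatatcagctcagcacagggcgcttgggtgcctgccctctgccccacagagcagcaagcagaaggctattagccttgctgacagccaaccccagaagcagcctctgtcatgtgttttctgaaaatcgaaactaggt
Lgals9: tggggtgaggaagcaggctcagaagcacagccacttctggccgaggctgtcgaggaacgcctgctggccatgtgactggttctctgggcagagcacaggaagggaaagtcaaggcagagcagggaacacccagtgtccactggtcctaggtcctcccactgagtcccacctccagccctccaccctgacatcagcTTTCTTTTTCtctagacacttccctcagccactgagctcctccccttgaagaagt
The motifs searched on both strands were AP-1 (TGANTCA), the E-box bound by TFEB and its relatives (CACGTG), GAS (TTCNNNGAA) and ISRE (GAAA, any 2 bases, GAAA), the element bound by interferon-activated factors. These letters were found in 6.75%, 6.02%, 7.02% and 2.98% of 32851 promoters of the same length, in that order. The search found 1 match, an ISRE on the reverse strand of the Lgals9 promoter from -55 to -46 relative to the start, shown in capitals as TTTCTTTTTC. None of the 4 motifs was found in the windows of Lgals3, Lgals3bp or Lgals8.

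**Figure D1:**
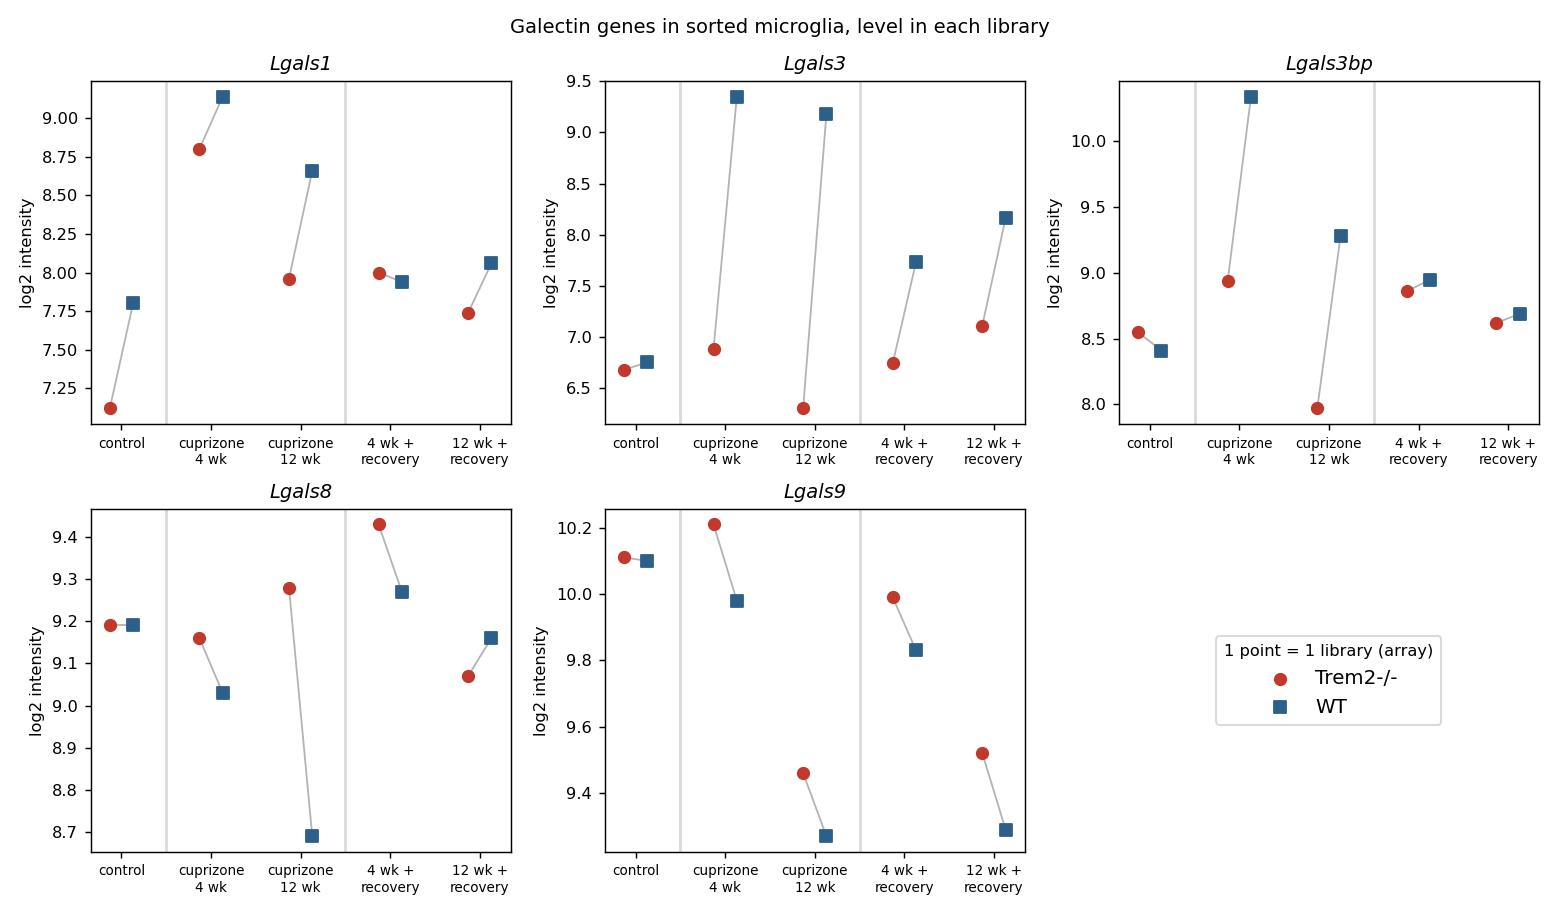
Log2 intensity of each galectin gene (vertical axis, a separate range for each gene) in the 10 libraries, by diet condition (horizontal axis). A red circle is the Trem2-/- library and a blue square the WT library of a condition, joined by a line. For Lgals3 the Trem2-/- circles on cuprizone, at 6.88 and 6.30, stand far below the WT squares, at 9.35 and 9.18.

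Lgals3 showed the largest difference of the 5 genes between genotypes on cuprizone and between diets in WT microglia. In control mice its log2 intensity was 6.68 in the Trem2-/- library and 6.75 in the WT library. On cuprizone it was 6.88 after 4 weeks and 6.30 after 12 weeks in Trem2-/- microglia, against 9.35 and 9.18 in WT microglia. In recovery it was 6.74 after 4 weeks of feeding and 7.11 after 12 weeks in Trem2-/- libraries, against 7.73 and 8.16 in WT libraries. The levels therefore ran in the order WT on cuprizone, WT in recovery, and then all 5 Trem2-/- libraries together with the WT control, whose ranges overlapped. As linear intensity, Lgals3 was 118 and 78.7 in Trem2-/- microglia after 4 and 12 weeks on cuprizone, against 651.5 and 579 in WT microglia.

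The first comparison asked how loss of Trem2 changes microglia during loss of myelin. On cuprizone, Lgals3 was lower in Trem2-/- microglia by a log2 difference of -2.67 ± 0.26 (SE, n = 2 each, 95% interval -3.28 to -2.07), which is 0.157 of the WT intensity, with an adjusted p of 0.0066 from limma over all genes tested. It was the 1 galectin gene of 5 to pass the threshold of 0.05, where 0.334% of all genes tested passed (36 genes). Groups did not overlap for 3 of the 5, namely Lgals3, Lgals3bp and Lgals8, where 28.7% of all genes did not overlap. Leaving out the WT library at 4 weeks gave -2.59 with an adjusted p of 0.06, and leaving out the Trem2-/- library at 12 weeks gave -2.38 with an adjusted p of 0.073. The call held in the other fits that left out a library, but most of those left out a library outside this comparison. Leaving out a control could not change the call, since a single control adds no spread. Microglia markers on cuprizone had list medians of 11.37 and 11.24 in Trem2-/- libraries after 4 and 12 weeks, against 11 and 10.78 in WT libraries, and 9 of 9 were higher in Trem2-/- by value with none called. No neutrophil, monocyte or border macrophage marker was called between genotypes there, and their median differences were -0.12, -0.27 and 0.09. Of 2 endothelial markers tested 1 was called, Flt1, a VEGF receptor, at -1.64 ± 0.23 (adjusted p = 0.029), and Pecam1, an endothelial adhesion molecule, gave 0.68 ± 0.20 (adjusted p = 0.59). Flt1 exceeded the table's median of 5.27 on 4 of 10 arrays, so it was tested only through the arrays in which it was high. Its lowest value was 4.16 and its median 4.59, so most of its values lie at the dim end of the array. The defining endothelial markers Cldn5 and Cdh5 were above the table's median on 0 of 10 arrays. The part of these markers in the Lgals3 difference was not tested.

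Each genotype on cuprizone was then set against its own control. In Trem2-/- microglia this step gave -0.09 ± 0.32 for Lgals3, with a 95% interval of -0.83 to 0.65 (adjusted p = 1). Limma called no gene there (0% of all genes, smallest adjusted p 0.4), and 100 genes had an unadjusted p under 0.05. In WT microglia Lgals3 rose by 2.51 ± 0.32 on the log2 scale, or 5.7-fold (n = 2 against 1, 95% interval 1.77 to 3.25, adjusted p = 0.036, limma). It was again the 1 galectin gene of 5 called, where 0.148% of all genes were called (16 genes, all higher). All 5 galectin genes lay outside the single control value in both cuprizone libraries, as did 65% of all genes. The adjusted p passed 0.05 in 3 of 9 fits that left out a library. It was 0.21 without the WT library at 4 weeks (log2 difference 2.43) and 0.17 without that at 12 weeks (log2 difference 2.60). Without either Trem2-/- cuprizone library it was 0.068, and without either Trem2-/- recovery library 0.058, with fewer libraries behind the spread. In this WT response 8 of 9 border macrophage markers were higher by value, with a median of 0.53, and 1 was called, Ms4a7, at 2.17 ± 0.30 (adjusted p = 0.048). Microglia markers were lower by value in 9 of 9, with a median of -0.44 and none called. The medians of neutrophil and monocyte markers were -2.1 and -1.05, also with none called. By library, the WT neutrophil list median was 8.22 in the control, 8.30 after 4 weeks on cuprizone and 4.57 after 12 weeks. In the same order, monocyte list medians were 5.78, 6.09 and 4.34, and border macrophage list medians 6.89, 8.46 and 6.93. The library after 12 weeks belongs to the second run and the control to the first. The part of these markers in the WT response of Lgals3 was not tested.

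The difference between the genotypes in this response was -2.60 ± 0.46 for Lgals3, with a 95% interval of -3.65 to -1.55 (adjusted p = 0.49, limma). That comparison called 0.00927% of all genes (1 gene) and none of the 5 galectin genes. The 3 comparisons share libraries, since the WT cuprizone pair stands in the genotype difference and in the WT response alike.

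In recovery, the genotype difference of Lgals3 was -1.02 ± 0.26 (95% interval -1.63 to -0.42, adjusted p = 1, limma). Its Trem2-/- values of 6.74 and 7.11 did not overlap the WT values of 7.73 and 8.16. It was the 1 galectin gene of 5 without overlap, where 23.6% of all genes had none. Limma called 0.0278% of all genes in this comparison (3 genes).

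Trem2-/- microglia gave a step from cuprizone to recovery of 0.33 ± 0.26 for Lgals3, with an interval of -0.27 to 0.94 (adjusted p = 1). Here too 0% of genes were called, and 64 had an unadjusted p under 0.05. Groups overlapped for all 5 galectin genes, where 18.7% of all genes had no overlap. In WT microglia the step from cuprizone to recovery was -1.31 ± 0.26 for Lgals3, with a 95% interval of -1.92 to -0.71 (adjusted p = 1). No gene was called for that step (0%, smallest adjusted p 0.44), and 295 genes had an unadjusted p under 0.05. Groups did not overlap for 4 of the 5 galectin genes, all but Lgals9, where 26.8% of all genes had no overlap.

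Set against their control, Trem2-/- recovery libraries gave 0.24 ± 0.32, where 0% of genes were called and 151 had an unadjusted p under 0.05. For 4 of the 5 galectin genes, all but Lgals8, recovery values lay outside the control, as did 58.5% of all genes. In WT microglia Lgals3 in recovery differed from the control by 1.20 ± 0.32, with an interval of 0.45 to 1.94 (adjusted p = 1), in a comparison where limma called 0% of genes and 242 had an unadjusted p under 0.05. Recovery values lay outside the WT control for 4 of the 5 galectin genes, all but Lgals8, and for 62.2% of all genes.

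Between cuprizone and recovery the 2 feeding times went different ways by value in Trem2-/- libraries, at -0.14 after 4 weeks and 0.81 after 12 weeks, whereas in WT libraries both steps were negative, at -1.61 and -1.01. The difference between the genotypes in this step, a comparison added after the data were seen, was 1.65 ± 0.37 (95% interval 0.79 to 2.5, adjusted p = 1), with 0% of genes called and 161 at an unadjusted p under 0.05.

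**Figure D2:**
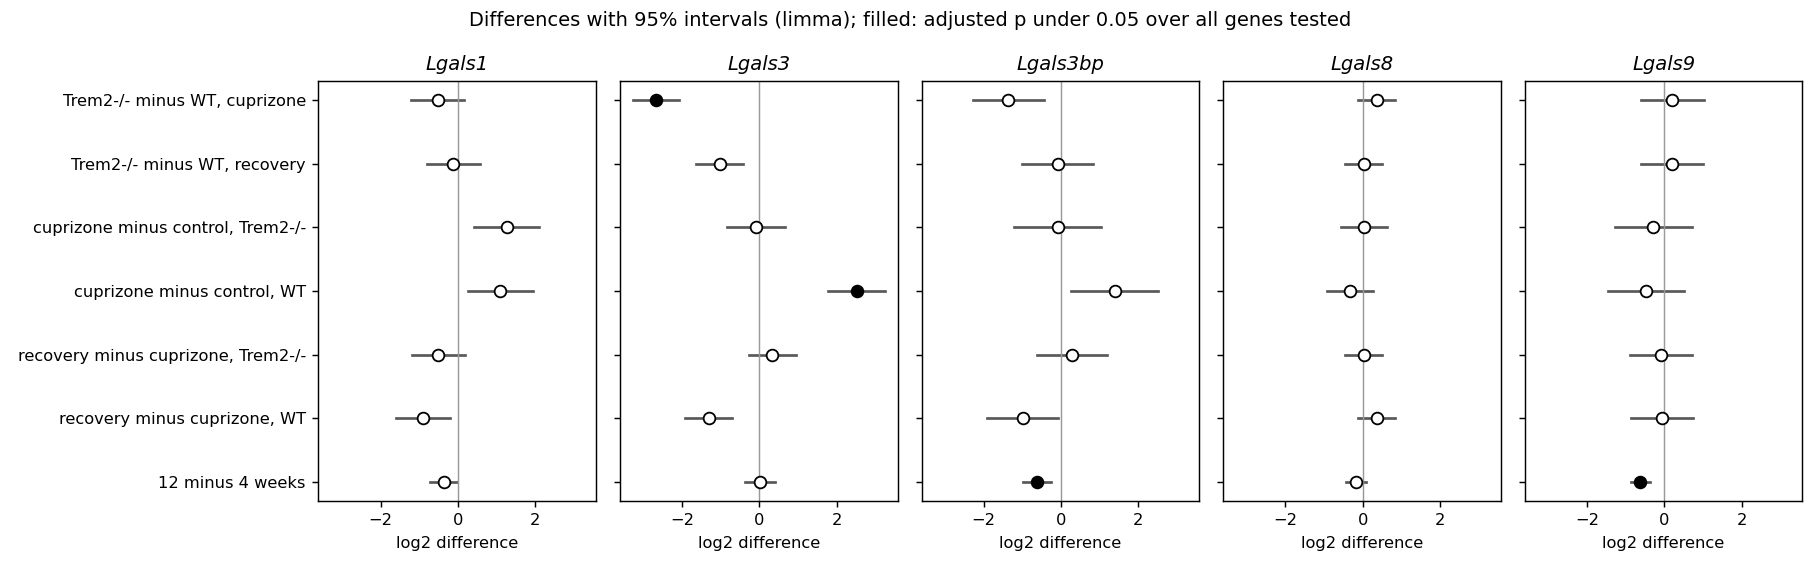
Log2 differences (horizontal axis) of the 5 galectin genes in 7 comparisons (vertical axis), with 95% intervals from limma. Filled points passed an adjusted p of 0.05 over all genes: Lgals3 at -2.67 between genotypes on cuprizone and at 2.51 in the WT response to cuprizone, and Lgals3bp at -0.63 and Lgals9 at -0.62 between feeding times.

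Lgals3bp, the secreted glycoprotein that galectin-3 binds, had its highest value in the same library as Lgals3. Its log2 intensity in controls was 8.55 in the Trem2-/- library and 8.41 in the WT library. On cuprizone it was 8.94 after 4 weeks and 7.97 after 12 weeks in Trem2-/- microglia, against 10.34 and 9.28 in WT microglia. In recovery the Trem2-/- values were 8.86 and 8.62 and the WT values 8.95 and 8.69. The WT library at 4 weeks on cuprizone stood alone at the top, and in recovery the genotypes lay within 0.10 of each other at each feeding time.

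The genotype difference of Lgals3bp on cuprizone was -1.36 ± 0.40 (n = 2 each, 95% interval -2.27 to -0.44, adjusted p = 0.61, limma). It was much the same at both feeding times, at -1.40 after 4 weeks and -1.31 after 12 weeks. Both genotypes were lower after 12 than after 4 weeks, with differences of -0.97 in Trem2-/- and -1.06 in WT libraries, and the model of group means counts that difference as spread. With feeding time as a block the difference was -1.36 ± 0.23 with an adjusted p of 0.018, in a fit that called 1.42% of all genes (153 genes) and 2 of the 5 galectin genes, Lgals3 and Lgals3bp. The Lgals3bp call was lost in that fit when the library with conflicting time labels counted as 4 weeks, at -1.61 ± 0.35 (adjusted p = 0.12).

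In Trem2-/- microglia the response of Lgals3bp was -0.09 ± 0.49 without the block and 0.22 with it, and neither passed. The WT response to cuprizone of Lgals3bp was 1.40 ± 0.49 (adjusted p = 0.93) without the block. It was 1.71 ± 0.29 with the block (adjusted p = 0.026), where 0.973% of all genes were called (105 genes) and the controls counted as 4 weeks. With the conflicting library as 4 weeks it was 1.66 ± 0.41 and the call was lost (adjusted p = 0.25). By library, the Trem2-/- response was 0.39 after 4 weeks and -0.58 after 12 weeks, against 1.93 and 0.87 in WT libraries. The difference between the genotypes in the response was -1.49 ± 0.69 (adjusted p = 1). In recovery the genotype difference of Lgals3bp was -0.08 ± 0.40, with an interval that reached from -1.0 to 0.83. The step from cuprizone to recovery was 0.28 ± 0.40 in Trem2-/- and -0.99 ± 0.40 in WT microglia (adjusted p = 1 in both).

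Lgals1, which encodes galectin-1, differed from Lgals3 in that its cuprizone values exceeded the control in both genotypes. In controls its log2 intensity was 7.12 in the Trem2-/- library and 7.80 in the WT library, a difference of -0.68 between single libraries that has no test. On cuprizone it was 8.80 after 4 weeks and 7.96 after 12 weeks in Trem2-/- microglia, against 9.14 and 8.66 in WT microglia. In recovery it was 8.00 and 7.74 in Trem2-/- microglia and 7.94 and 8.06 in WT microglia. The highest value of each genotype was that after 4 weeks on cuprizone, and the genotypes' ranges on cuprizone overlapped.

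The response of Lgals1 to cuprizone was 1.26 ± 0.37 in Trem2-/- microglia (95% interval 0.41 to 2.10, adjusted p = 1) and 1.09 ± 0.37 in WT microglia (adjusted p = 0.88). Of the 5 galectin genes it was the 1 whose Trem2-/- cuprizone values both lay on the same side of the Trem2-/- control. Among all genes, 58.4% had no overlap between cuprizone and control in Trem2-/- libraries. The responses differed between genotypes by 0.16 ± 0.52 (adjusted p = 1), with a 95% interval from -1.03 to 1.35 that leaves room for a difference of more than 1 log2 unit either way. The genotype difference on cuprizone was -0.52 ± 0.30, with an interval of -1.21 to 0.17 (adjusted p = 1). It depended on single libraries, at -0.94 without the Trem2-/- library at 4 weeks, -0.10 without that at 12 weeks and -0.28 without the WT library at 4 weeks. In a model of genotype over the 5 conditions of diet, with each condition a block, Lgals1 was lower in Trem2-/- in 4 of 5 pairs, by a mean of -0.40 ± 0.12 (adjusted p = 0.26).

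That comparison over 5 conditions called 0.259% of all genes (28 genes) and none of the galectin genes. Lgals3 was lower in Trem2-/- in 5 of 5 pairs, by differences of -2.88 to -0.07 and a mean of -1.49 ± 0.34 (adjusted p = 0.13). Without the control pair it was -1.85 with an adjusted p of 0.022. Lgals3bp was lower in 4 of 5 pairs (mean -0.55 ± 0.23, adjusted p = 0.42). For Lgals9 the sign was the opposite, higher in Trem2-/- in 5 of 5 pairs but by 0.02 to 0.23 (mean 0.17 ± 0.09, adjusted p = 0.54).

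Lgals8, which encodes the tandem-repeat lectin that brings autophagy receptors to damaged vacuoles, varied least. Its log2 intensity was 9.19 in both controls. On cuprizone it was 9.16 after 4 weeks and 9.28 after 12 weeks in Trem2-/- microglia, against 9.03 and 8.69 in WT microglia. In recovery it was 9.43 and 9.07 in Trem2-/- libraries and 9.27 and 9.16 in WT libraries. The lowest of the 10 values was that of the WT library after 12 weeks on cuprizone. The SD over all arrays was 0.20, larger than that of 39.4% of the genes tested, whereas the SD of Lgals3 was 1.08, larger than that of 99.6%. The genotype difference on cuprizone was 0.36 ± 0.21 and the WT response -0.33 ± 0.26 (adjusted p = 1 in both).

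Lgals9, which encodes the ligand of the inhibitory receptor TIM-3 (Havcr2), differed by feeding time. In controls it was 10.11 in the Trem2-/- library and 10.10 in the WT library. On cuprizone it was 10.21 after 4 weeks and 9.46 after 12 weeks in Trem2-/- microglia, against 9.98 and 9.27 in WT microglia. In recovery it was 9.99 and 9.52 in Trem2-/- libraries and 9.83 and 9.29 in WT libraries. Every library of the second run, at 9.27 to 9.52, was below every library of the first run, at 9.83 to 10.21. The genotype difference of Lgals9 was 0.21 ± 0.35 on cuprizone and 0.19 ± 0.35 in recovery (adjusted p = 1 in both).

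Between feeding times, with the 4 groups as a block over 8 arrays, Lgals9 was lower at 12 than at 4 weeks with a log2 difference of -0.62 ± 0.11 (95% interval -0.86 to -0.37, adjusted p = 0.0054, limma), in 4 of 4 pairs and by -0.75 to -0.48. Lgals3bp was lower with a difference of -0.63 ± 0.16 (95% interval -0.99 to -0.27, adjusted p = 0.024), in 4 of 4 pairs and by -1.06 to -0.23. These 2 of 5 galectin genes were called where 20.3% of all genes were called (2194 genes, 1307 of them lower). Lgals9 was the 1 galectin gene whose values did not overlap between the feeding times, where 23.6% of all genes had no overlap. Lgals1 gave -0.36 ± 0.15 (adjusted p = 0.12), which passed without the WT recovery pair at -0.53 (adjusted p = 0.04), and Lgals8 gave -0.17 ± 0.12 (adjusted p = 0.33). Lgals3 gave 0.01 ± 0.17, with an interval of -0.37 to 0.39 (adjusted p = 0.96).

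The call of Lgals3bp was lost without any 1 of the 4 cuprizone libraries, at -0.49 or -0.52 with adjusted p-values of 0.09 to 0.10. Both calls were lost when the library with conflicting time labels counted as 4 weeks, at -0.58 for Lgals9 (adjusted p = 0.12) and -0.52 for Lgals3bp (adjusted p = 0.24), and 186 genes were then called. Summed linear intensities of 8 neutrophil markers were 173 to 329 in the second run and 4644 to 14021 in the first, with 5 of the 8 below the table's median in every library of the second run. Sums of 7 monocyte markers were 123 to 171 in the second run and 339 to 648 in the first, with 4 of the 7 below that median throughout the second run. Of 9 border macrophage markers 8 were called lower at 12 weeks, with a median difference of -1.15, where 12.1% of all genes were called lower. Of 9 microglia markers 3 were called lower, with a median of -0.26. All 7 neutrophil markers tested were called lower, with a median of -4.04, and all 6 monocyte markers tested, with a median of -1.74. The part of these markers in the differences by feeding time was not tested. The border macrophage markers had list medians of 7.93 and 7.0 in Trem2-/- microglia after 4 and 12 weeks on cuprizone, against 8.46 and 6.93 in WT microglia. In controls those medians were 6.22 and 6.89, in the same order of genotypes, so the Trem2-/- control was lowest and the WT library after 4 weeks on cuprizone highest both in this list and in Lgals1. The part of these markers in the Lgals1 values was not tested.

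**Figure D3:**
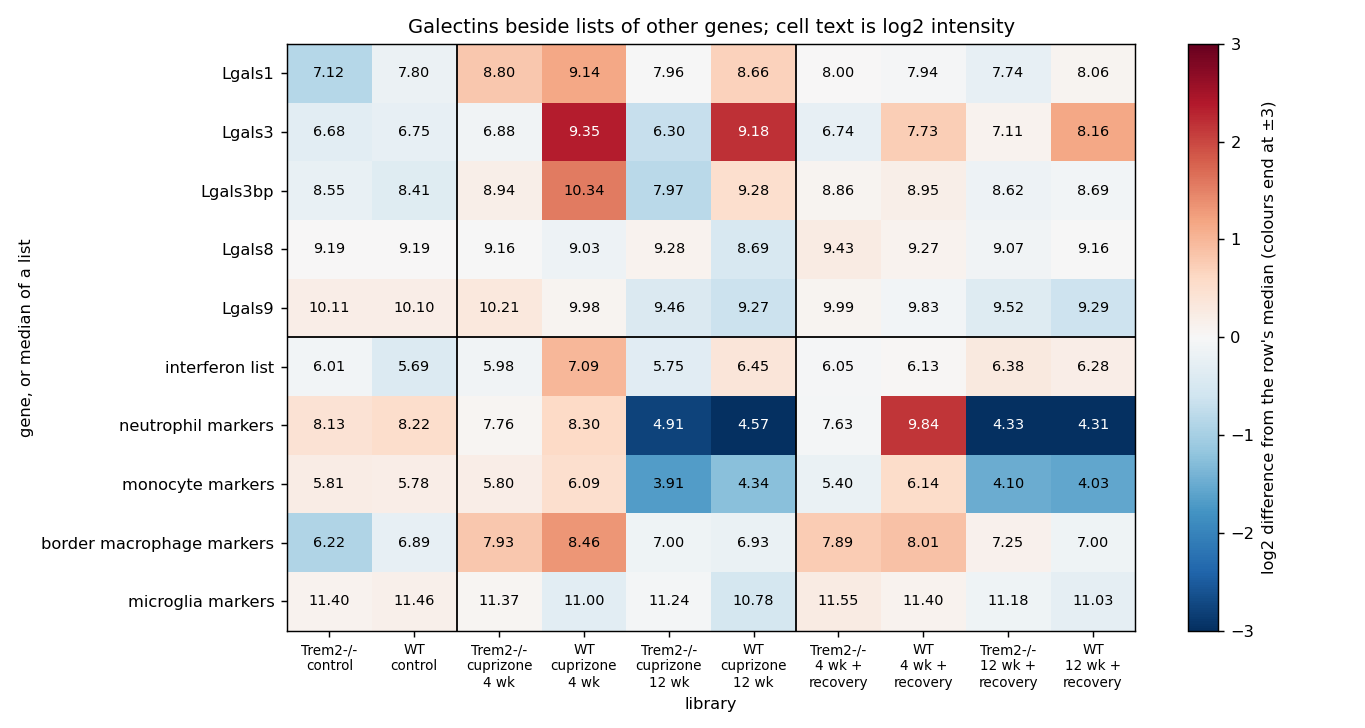
Log2 intensity of the galectin genes, and medians of the interferon list and of 4 marker lists (vertical axis), in the 10 libraries (horizontal axis). Numbers are log2 intensities and colours are differences from the median of each line over the 10 libraries. Lgals3 is reddest in the 2 WT cuprizone libraries, at 9.35 and 9.18, and Lgals9 turns blue with the neutrophil and monocyte markers in the libraries titled 12 weeks.

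Patterns over the 10 arrays were compared by Pearson's r after subtracting each run's mean, as a description, since the points share genotype, diet and run. Lgals3 and Lgals3bp had an r of 0.929, Lgals1 and Lgals3bp 0.772, and Lgals1 and Lgals3 0.673. Lgals8 ran the other way from Lgals3, at -0.727, and so did Lgals9, at -0.631. With run means left in, these values were 0.827, 0.744, 0.66, -0.717 and -0.361.

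The 5 genes most like Lgals3 by this measure were Atp6v0d2 (0.984), a subunit of the proton pump that acidifies lysosomes, Ank (0.982), which encodes a transporter for pyrophosphate export, Fam20c (0.981), a kinase of secreted proteins, Capg (0.981), an actin-capping protein, and Axl (0.979), a receptor for apoptotic cells. With run means left in, their r with Lgals3 was 0.939 to 0.978. Atp6v0d2 had log2 intensities of 4.18 and 4.17 in Trem2-/- microglia after 4 and 12 weeks on cuprizone, against 7.0 and 7.26 in WT microglia. It exceeded the table's median of 5.27 in 3 WT libraries alone, so it was tested only through the group in which it was high, and its Trem2-/- values lie at the dim end of the array. Axl had 5.59 and 5.32 in Trem2-/- and 8.83 and 8.47 in WT microglia at the same times, so its Trem2-/- values lie near that median. Like Lgals3, both were higher in every WT cuprizone and recovery library than in the Trem2-/- library of the same condition. Both genes were chosen for their correlation with Lgals3 over these same arrays, so a shared pattern was set by that choice.

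**Figure D4:**
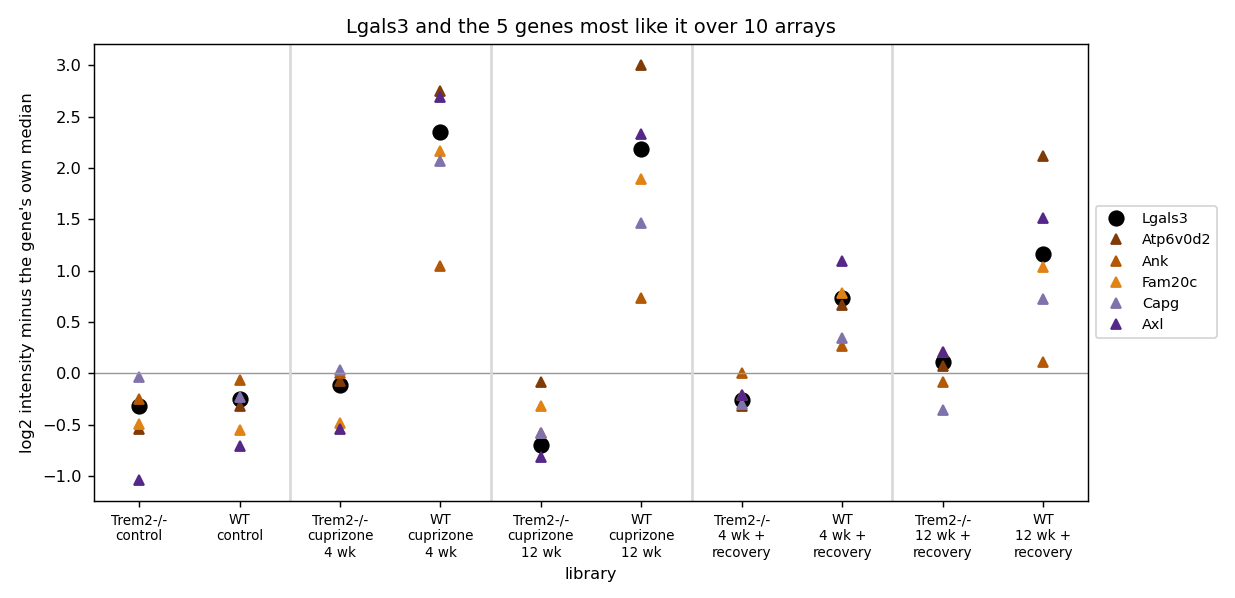
Log2 intensity minus the gene's own median over the 10 libraries (vertical axis) of Lgals3 (black circles) and the 5 genes with the highest correlation to it (triangles), in each library (horizontal axis). Each of the 6 genes is highest in 1 of the 2 WT cuprizone libraries, as Lgals3 is at 9.35 after 4 weeks. The 5 were chosen for their correlation with Lgals3 over these same arrays, so a shared pattern was set by that choice.

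The genes most like Lgals3bp were Sec11a (0.983), a subunit of the signal peptidase of the endoplasmic reticulum, Gas7 (0.977), Slc23a2 (0.977), an ascorbate transporter, Sem1 (0.972), a proteasome subunit, and Ch25h (0.97), a cholesterol hydroxylase. With run means left in, Sem1 had 0.392 and Ch25h 0.671, whereas Gas7 had 0.977. For Lgals1 the leading genes were Slfn5 (0.939), Ndufa4 (0.931), BC028528 (0.926), Ifi209 (0.923) and Ptpn22 (0.921), a phosphatase of immune cells. Ndufa4 had 0.467 and Ptpn22 0.626 with run means left in, whereas Slfn5 had 0.939. Lgals8 was followed most closely by Tchp (0.963), Camsap1 (0.952), Kcnrg (0.952), Ppp4r3b (0.947) and Kat6b (0.945). Lgals9 was followed by Fam76b (0.924), Ccr2 (0.922), the chemokine receptor of monocytes, Camk2g (0.919), Gpr155 (0.91) and Adamts16 (0.91). With run means left in, Ccr2 had an r of 0.954 with Lgals9, above the 0.558 of Fam76b. All these genes were likewise chosen for their correlation over these same arrays, so a shared pattern was set by that choice.

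Lgals9 and Lgals3bp are known targets of interferon, so the interferon list was set beside them. Of its 20 genes 16 were on the array and 15 were tested, and none passed in any comparison of groups. By value, 15 of 15 were lower in Trem2-/- than in WT microglia on cuprizone, with a list median of -0.66, where 50.2% of all genes were higher and their median was 0. Ifit1, an RNA-binding interferon effector, gave -1.25 ± 0.75 and Oas1a, an RNA sensor, -1.19 ± 0.29 (adjusted p = 0.30). In the Trem2-/- response to cuprizone 11 of 15 were higher, with a median of 0.11, and in the WT response 14 of 15 with a median of 0.99. The list's median level was 7.09 in the WT library after 4 weeks on cuprizone, the library in which Lgals1, Lgals3 and Lgals3bp were also highest. Lgals9 was not highest there, at 9.98 against 10.10 in the WT control and 10.21 in the Trem2-/- library after 4 weeks on cuprizone. The part of interferon in the galectin values was not tested.

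Between feeding times 3 of the 15 interferon genes were called, a share near the 20.3% of all genes called there. Cxcl10, a chemokine, rose by 2.07 ± 0.14 at 12 weeks (adjusted p = 8.7e-05) and Ifit1 rose by 1.39 ± 0.19 (adjusted p = 0.0018). Xaf1 fell by 1.43 ± 0.15 (adjusted p = 0.00059). The list's median was -0.08, where the median of all genes was -0.04, and 6 of the 15 were higher by value and 9 lower. The part of interferon in the differences of Lgals3bp and Lgals9 by feeding time was not tested.

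Of 20 receptors and binding partners of galectins, all were on the array and 18 were tested. On cuprizone the 1 gene called between genotypes was the deleted Trem2, at -3.13 ± 0.23 (adjusted p = 0.0028), and the list median was 0.05. Cd44, a hyaluronan receptor that galectins bind, gave -1.34 ± 0.24 (adjusted p = 0.094), and Alcam, a cell adhesion molecule, gave -1.33 ± 0.21 (adjusted p = 0.054). These 2 genes were chosen after their values were seen. In the WT response none was called, with Cd44 at 1.21 ± 0.30 (adjusted p = 0.42) and Cd209a, a lectin of dendritic cells, at -0.71 ± 0.64. Between feeding times 1 gene rose, Cd40, a receptor for T cell help, by 0.75 ± 0.13 (adjusted p = 0.0044), and 4 fell, so 5 of 18 were called where 20.3% of all genes were. Those lower were Mertk, a receptor for apoptotic cells (-0.62 ± 0.12, adjusted p = 0.0089), Cd209a (-0.86 ± 0.19, adjusted p = 0.014), Cd33, a sialic acid receptor (-0.35 ± 0.10, adjusted p = 0.04), and Spn, a sialoglycoprotein of leukocytes (-0.33 ± 0.10, adjusted p = 0.048), named after its value was seen.

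The enzymes that build the N-glycans read by galectins, 13 genes tested, had no call in any comparison of groups, and their median between genotypes on cuprizone was 0.12. The sialyltransferases St3gal4 and St3gal1 gave 0.51 ± 0.20 and -0.49 ± 0.29 there. Between feeding times 3 of 13 were called, near the 20.3% of all genes. The branching enzyme Mgat2 rose by 0.51 ± 0.13 (adjusted p = 0.025), whereas Mgat4b (-0.55 ± 0.16, adjusted p = 0.042) and the mannosidase Man2a1 (-0.59 ± 0.18, adjusted p = 0.046) fell. The list for the response to damaged lysosomes, with 12 of 14 genes tested, likewise had no call between groups and a genotype median of -0.03 on cuprizone. Between feeding times 3 of 12 were called, again near 20.3%. At 12 weeks the autophagy receptor Sqstm1 rose by 0.76 ± 0.11 (adjusted p = 0.0021) and the membrane repair gene Chmp4b by 0.63 ± 0.11 (adjusted p = 0.0042), and Slc38a9, a lysosomal amino acid sensor, fell by 0.48 ± 0.12 (adjusted p = 0.022).

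Of 7 further galectin-family genes, 6 were on the array. Lgals2 and Lgals12 were above the table's median on 0 of 10 arrays, and Lgals4 and Lgals7 on 1 each, so these 4 were not tested. Lgalsl, a galectin-like gene, was tested and was higher at 12 than at 4 weeks by 0.52 ± 0.13 (adjusted p = 0.02). Grifin, a lens-type family member, gave -0.50 ± 0.25 in the WT response to cuprizone and was not called.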

How the data were processed

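Total RNA of sorted microglia had been amplified into biotinylated cRNA and hybridised to 1-colour arrays, 1 per library. The authors deposited 1 table of linear intensity values, and the background correction, summarization and normalization behind these deposited intensities are not given in the sources used. Log2 was taken with no further scaling. Genes were tested when 2 or more arrays exceeded the table's median. Probes naming 1 gene numbered 21259 of 24567, and 1274 named several. Tests were run with lmFit and eBayes of limma 3.58.1 (R 4.3.3), with Benjamini-Hochberg adjustment over 10792 genes and a threshold of 0.05, and were tested on simulated data. The models were 6 group means (4 residual degrees of freedom), genotype over 5 conditions with condition as a block (4), and 12 against 4 weeks over 8 arrays with group as a block (3). A lone control library was taken to vary as the other groups do. Alternatives were scaling, filter, probe choice, prior, feeding time as a block and leaving out each library. Intervals cover the arrays' spread, and the number of arrays limits their precision.

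The members, the gene lists and the rule for naming were chosen with earlier results of these data known. That rule names all 5 members, from each list up to 4 called genes or else the 2 with the largest difference, and the 5 genes most like each member. Cd44, Alcam, Spn, Flt1, Pecam1 and Ms4a7 were named outside that rule, after their values were seen. The genotype difference in the recovery step was added after seeing the data.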

Additional observations from a re-analysis of the deposited data

How the results depend on the processing

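Across all alternatives that kept every library, 458 differences of the galectin genes kept their direction and their side of the threshold, 3 newly passed it, 2 no longer passed it and 7 changed sign. The 7 were small and not called: Lgals9 between genotypes on cuprizone (-0.08), Lgals9 in the Trem2-/- step to recovery (0.21), in the genotype difference of the response (-0.09) and of the recovery step (0.27) with feeding time as a block and the conflicting library as 4 weeks, Lgals3bp (0.22) and Lgals9 (0.03) in the Trem2-/- response with feeding time as a block, and Lgals8 there after quantile normalization (-0.01). The changes of filter, prior and probe choice could not alter a direction, because each galectin gene had 1 probe. Those settings bear only on the side of the threshold. Scaling moved the median of all genes by at most 0.04.

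With feeding time as a block, the genes called numbered 153 between genotypes on cuprizone, 10 between genotypes in recovery, 13 in the Trem2-/- response and 105 in the WT response. They numbered 7 in the WT step to recovery, 19 in Trem2-/- and 19 in WT recovery against control, and 9 for the genotype difference of the response. With the conflicting library as 4 weeks in that block, they numbered 55 and 8 between genotypes on cuprizone and in recovery, 37 in the WT response, and 2 in Trem2-/- and 1 in WT recovery against control. The block called 2 galectin genes, Lgals3 and Lgals3bp, both between genotypes on cuprizone and in the WT response, and with the conflicting library as 4 weeks it called 1, Lgals3, in each. Subtracting array medians left 0 genes for the genotype difference of the response. For the genotype over 5 conditions, 44 genes were called with no filter, 6 without the condition as a block, and 99 with the prior variance as a trend, which also called 1 galectin gene, Lgals3 (adjusted p = 0.046). With the conflicting library as 4 weeks, the feeding times gave 186 genes and 0 galectin genes, with Lgals3bp at -0.52 and Lgals9 at -0.58. The cause of these changes was not tested.

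Leaving out each library gave 0 to 42 genes between genotypes on cuprizone, with 16 without the Trem2-/- and 11 without the WT library at 4 weeks, and 0 without the Trem2-/- and 17 without the WT library at 12 weeks. It gave 0 to 4 genes in recovery (0 without either WT library or the Trem2-/- library after 12 weeks), 2 to 16 in the WT response (2 without the WT library at 4 weeks and 5 without any other cuprizone library) and 0 to 1 for the genotype difference of the response (1 without the WT library at 12 weeks on cuprizone and 0 without any other). It gave 8 to 103 over 5 conditions (103 without the control pair, 13 without a recovery pair and 8 without a cuprizone pair) and 1064 to 2194 between feeding times, with 1064 without a Trem2-/- recovery library and 1229 without a WT cuprizone library. The galectin genes called were 0 to 1 between genotypes on cuprizone, in the WT response and over 5 conditions, and 1 to 3 between feeding times. Lgals3 over 5 conditions ran between -1.85 and -1.15, between genotypes on cuprizone between -2.96 and -2.38, and in the WT response between 2.43 and 2.60. Lgals3bp between feeding times ran between -0.76 and -0.49.

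Sign changes among these fits were of differences not called. Lgals1 ran from -0.26 to 0.58 in the response and -0.03 to 0.81 in the recovery step between genotypes, and Lgals3 from -0.38 to 0.20 in the Trem2-/- response and -0.13 to 0.21 between feeding times. Lgals3bp ran from -0.58 to 0.39 in the Trem2-/- response, -0.21 to 0.05 between genotypes in recovery and -0.20 to 0.77 in the Trem2-/- step to recovery. Lgals8 ran from -0.03 to 0.08 in the Trem2-/- response and likewise in WT recovery against control, -0.13 to 0.23 in Trem2-/- recovery against control, and -0.15 to 0.21 both between genotypes in recovery and in the Trem2-/- step to recovery. Lgals9 ran from -0.16 to 0.59 between genotypes on cuprizone, -0.07 to 0.46 between genotypes in recovery and -0.66 to 0.10 in the Trem2-/- response. In the step to recovery it ran from -0.45 to 0.30 in Trem2-/- and -0.42 to 0.30 in WT, and in the genotype difference from -0.18 to 0.57 for the response and -0.39 to 0.36 for the recovery step. Lgals1 ran from -0.26 to 0 between genotypes in recovery.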
